A study of Mus musculus with 24 samples.

Results

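Thioredoxin-interacting protein (*Txnip*), 4 arrestin domain containing genes (*Arrdc1*, *Arrdc2*, *Arrdc3* and *Arrdc4*) and the transcription factor genes *Mlx* and *Mlxip* were followed across 24 messenger RNA sequencing libraries of mouse embryonic fibroblasts (MEFs). The 7 genes were chosen by name, and all 7 were among the 15401 genes with enough counts to be tested, of 55487 in the table. The MEFs were wild type (WT) or carried the knockout of both *Tfeb* and *Tfe3* (*tfeb tfe3* DKO), and each was given DMSO as vehicle, torin1, which inhibits the kinase MTOR, or the AMPK activator MK-8722. The resulting 6 groups held 4 libraries each, and the design asked how the knockout bears on the response to each drug. The labels give each library of a group another passage (7, 8, 9 and 11 in WT, 8, 9, 10 and 11 in *tfeb tfe3* DKO). The study's methods describe independent repeats of its experiments in general, without tying them to these libraries, so the p-values measure the spread between these libraries.

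TXNIP binds and restrains thioredoxin and lowers glucose uptake by acting on glucose transporters. It belongs, with ARRDC1 to ARRDC4, to the alpha-arrestins, adaptor proteins that can bring ubiquitin ligases of the NEDD4 family to membrane cargo. MLXIP, also called MondoA, pairs with MLX, and the pair binds carbohydrate response elements when sugar phosphates accumulate in the cell. *Txnip* and *Arrdc4* are the best known MondoA target genes, and AMPK is known to phosphorylate TXNIP and lead to its degradation. TFEB and TFE3 are factors of the same basic helix-loop-helix leucine zipper class and bind related E-box motifs in lysosomal and autophagy genes.

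Sequence before the transcription start is shown for the 3 members whose window held an E-box or a carbohydrate response type of motif. Windows of 300 bases around the starts of all genes (RefSeq, GRCm38.p6, 32851 windows, all 7 members matched by name) were searched on both strands. Capitals mark CCAAT boxes on either strand in all 3 sequences. They also mark, in *Txnip*, a match to the forkhead motif GTAAACA and further on the E-box-like motif CACGNG repeated after a gap of 5 bases. In *Arrdc4* they mark the E-box CACGTG, and in *Mlx* the longer TCACGTGA, which holds that E-box.
Txnip, chr3:96557807-96557926, + strand, bases -150 to -31 from the start: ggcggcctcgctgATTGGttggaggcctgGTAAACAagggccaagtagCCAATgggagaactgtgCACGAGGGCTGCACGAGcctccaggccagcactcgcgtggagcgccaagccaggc
Arrdc4, chr7:68749269-68749488, - strand, bases -250 to -31 from the start: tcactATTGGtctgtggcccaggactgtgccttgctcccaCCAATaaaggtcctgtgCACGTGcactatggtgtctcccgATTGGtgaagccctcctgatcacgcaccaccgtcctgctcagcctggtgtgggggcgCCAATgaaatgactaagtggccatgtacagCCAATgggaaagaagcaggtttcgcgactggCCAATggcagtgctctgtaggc
Mlx, chr11:101087170-101087269, + strand, bases -120 to -21 from the start: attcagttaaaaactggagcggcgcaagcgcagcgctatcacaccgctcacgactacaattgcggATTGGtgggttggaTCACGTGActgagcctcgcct

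The spaced CACGNG repeat of *Txnip* lay between bases -85 and -69, and 16 of the 32851 windows held one (0.0487%). CACGTG stood between -193 and -188 in *Arrdc4* and occurred in 7.15% of all windows. TCACGTGA stood between -41 and -34 in *Mlx* and occurred in 0.9741%. CCAAT was common (37.41% of windows), with 6 matches in *Arrdc4*, and GTAAACA, found once in *Txnip*, was in 3.65%. The windows of *Arrdc1*, *Arrdc2*, *Arrdc3* and *Mlxip* held none of the CACG motifs. For the *Arrdc1* window and for window 2 of *Arrdc3*, the downstream end did not match near the start of an annotated transcript of the gene. A match is a description of the letters in these windows.

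Library totals ran from 24668921 to 33332562 counts with a median of 27988364, and the RNA integrity numbers in the labels were 9.7 to 9.9, but 7.9 in the *tfeb tfe3* DKO library with MK-8722 of passage 10. With DMSO, *Tfeb* mRNA was 10.2-fold lower in *tfeb tfe3* DKO, while *Tfe3* mRNA was 120.2 ± 1.17 CPM (counts scaled to the library size) in WT and 123.6 ± 2.11 CPM in *tfeb tfe3* DKO (SD, n = 4), so the counts check the knockout of *Tfeb* and not that of *Tfe3*. Of 8 fibroblast markers, *Col1a1*, *Vim* and *Fn1* were at 754 CPM or more in every library. *Col3a1* went down to 8.99 CPM and *Pdgfra* to 4.21, and *Thy1* was at 0 in 11 libraries. In *tfeb tfe3* DKO against WT, *Thy1* was called lower and *Pdgfra* and *Pdgfrb* higher under all 3 treatments. Of the leukocyte markers *Adgre1* was at 0 in all 24 and *Ptprc* at most 0.195 CPM, while *Cd68*, which encodes a lysosomal membrane protein, reached 14.3. The sum of the leukocyte markers, nearly all *Cd68*, ran from 1.63 to 2.24 CPM in WT with DMSO and from 10.1 to 14.3 in WT with MK-8722. The summed epithelial markers stayed at or below 2.65 CPM and the endothelial ones at or below 1.37. The WT and the *tfeb tfe3* DKO MEFs are 2 cell lines, so genotype and line cannot be told apart, and in bulk libraries fewer cells of a kind and less RNA per cell cannot be told apart either.

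*Txnip* (ENSMUSG00000038393; GRCm38 chromosome 3, 96557957 to 96561883, + strand) rose with torin1 and fell with MK-8722, in WT and in *tfeb tfe3* DKO MEFs. In WT with DMSO, the libraries of passages 7, 8, 9 and 11 had 24.01, 15.3, 15.7 and 23.6 CPM. With torin1 they had 82.3, 87.8, 104.6 and 125.8 CPM, and with MK-8722 9.96, 5.39, 4.12 and 9.82 CPM. The 3 WT groups did not overlap, with every torin1 library above and every MK-8722 library below the DMSO libraries. Torin1 raised *Txnip* 5.08-fold (log2 fold change 2.35, standard error 0.24, Benjamini-Hochberg adjusted p = 1.34e-08 in the quasi-likelihood test of edgeR). MK-8722 lowered it 2.70-fold (log2 fold change -1.44, standard error 0.26, edgeR adjusted p = 0.000145). Among 15401 tested genes this was the 63rd highest log2 fold change with torin1 and the 49th lowest with MK-8722, and between the drugs *Txnip* had the 3rd highest (13.7-fold, log2 fold change 3.78).

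The same directions were seen in *tfeb tfe3* DKO MEFs. With DMSO, *Txnip* there was at 49.9, 35.7, 33.7 and 42.1 CPM at passages 8, 9, 10 and 11. With torin1 it was at 123.6, 116.7, 124.4 and 147.6 CPM, and with MK-8722 at 31.0, 17.9, 15.7 and 26.0 CPM. These groups did not overlap either. The increase with torin1 was 3.18-fold (log2 fold change 1.67, 95% interval 1.19 to 2.14), and the decrease with MK-8722 was 1.78-fold (log2 fold change -0.83, 95% interval -1.32 to -0.35, edgeR adjusted p = 0.0131). The latter missed the threshold when any of 3 single *tfeb tfe3* DKO libraries was left out (adjusted p = 0.0503 without the DMSO library of passage 8, 0.0534 and 0.0552 without the MK-8722 libraries of passages 9 and 10). The last of these, the one with the RNA integrity number of 7.9, had the lowest *Txnip* of its group (15.7 CPM), and the part of RNA quality in this was not tested.

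**Figure D1:**
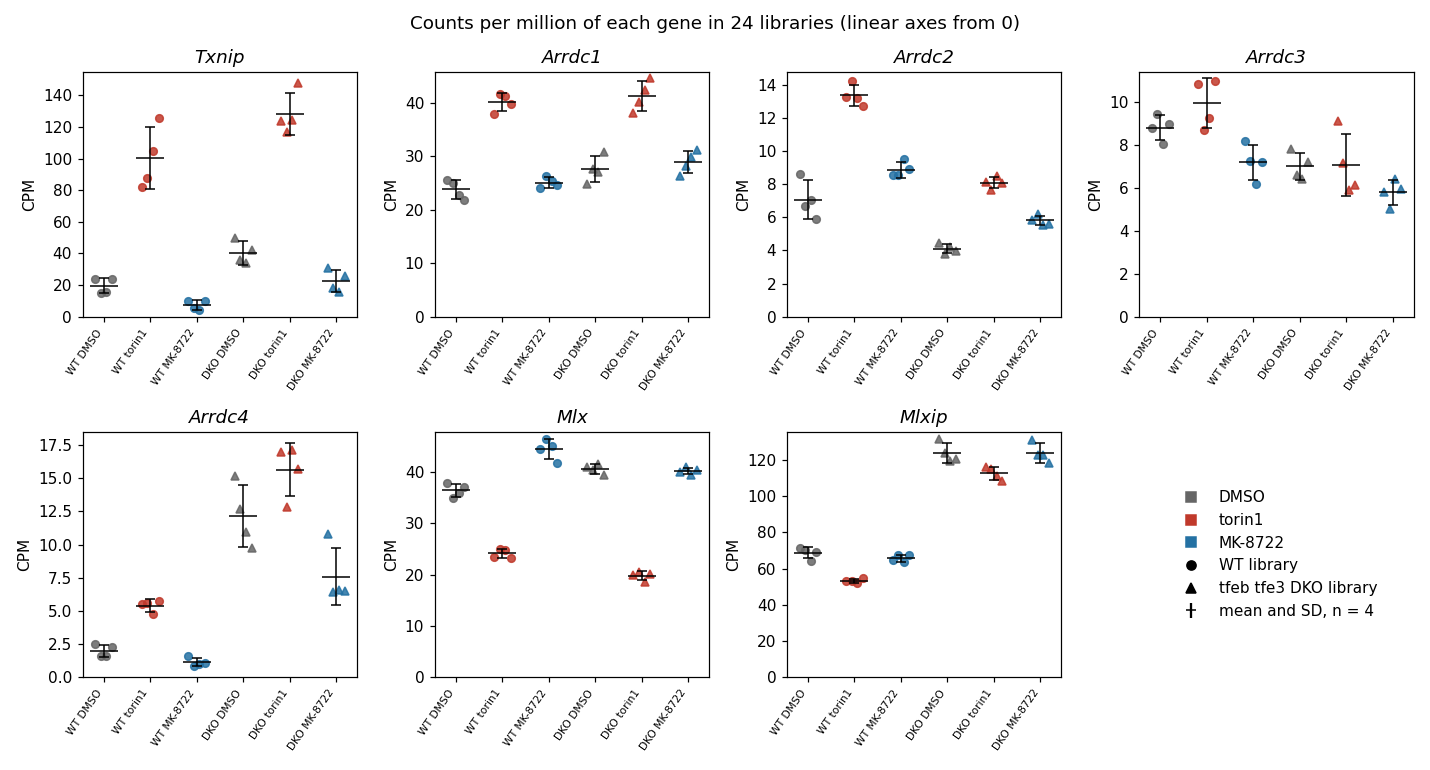
CPM (linear axes from 0) of the 7 genes in each of 24 libraries, by group on the horizontal axis, with circles for WT, triangles for *tfeb tfe3* DKO, and the mean and SD of 4 libraries as bars. *Txnip* lay at 82.3 CPM or more in the torin1 libraries of both genotypes and at 49.9 or less in all others, and *Arrdc4* was higher in every *tfeb tfe3* DKO library than in the WT libraries.

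Outside torin1, *Txnip* was also above its WT level in *tfeb tfe3* DKO. The difference was 2.05-fold with DMSO (log2 fold change 1.03, standard error 0.23) and 3.10-fold with MK-8722 (log2 fold change 1.63, standard error 0.26), with edgeR adjusted p = 0.000528 and 7.12e-06. With torin1 the ranges of the 2 genotypes overlapped, at 100.1 ± 19.6 CPM in WT and 128.1 ± 13.5 CPM in *tfeb tfe3* DKO (SD, n = 4), and the log2 fold change of 0.36 did not pass (95% interval -0.10 to 0.81). It passed under 5 other settings: passage as a block (0.47, edgeR adjusted p = 0.0289), passage within genotype as a block (0.36, 0.0118), only these 2 groups fitted (0.36, 0.0283), voom in limma (0.37, 0.0395) and without the WT libraries of passage 11 (0.50, 0.0352). Between the genotypes, the response to torin1 (*tfeb tfe3* DKO minus WT) differed by -0.68 (95% interval -1.34 to -0.01, edgeR adjusted p = 0.171), and the response to MK-8722 differed by 0.60 (95% interval -0.11 to 1.32). Neither difference passed in this fit, and the intervals reach past 1 log2 unit, so equal responses are not shown. With passage within genotype as a block, the difference in the response to torin1 passed (-0.67, edgeR adjusted p = 0.0150). Ordered by mean CPM, the groups ran from WT with MK-8722 over WT with DMSO, *tfeb tfe3* DKO with MK-8722, *tfeb tfe3* DKO with DMSO and WT with torin1 to *tfeb tfe3* DKO with torin1, and the neighbours whose ranges overlapped were WT with DMSO beside *tfeb tfe3* DKO with MK-8722 and the 2 torin1 groups.

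*Arrdc4* (ENSMUSG00000042659; chromosome 7, 68736995 to 68749241, - strand), the closest in regulation to *Txnip* by what is known of MondoA, was the member with the largest genotype difference under each of the 3 treatments. In WT with DMSO it was at 2.52, 1.57, 1.60 and 2.23 CPM at passages 7, 8, 9 and 11, and the DKO libraries with DMSO had 15.2, 12.7, 11.0 and 9.73 CPM at passages 8, 9, 10 and 11. With torin1 the values were 5.49, 5.62, 4.73 and 5.75 CPM in WT and 16.97, 12.8, 17.1 and 15.7 CPM in *tfeb tfe3* DKO. With MK-8722 they were 1.60, 0.841, 0.991 and 1.08 CPM in WT and 10.8, 6.42, 6.54 and 6.498 CPM in *tfeb tfe3* DKO. No WT library reached the lowest *tfeb tfe3* DKO library under any treatment, and the WT values rest on 22 to 176 counts.

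The DKO level of *Arrdc4* was 6.07-fold that of WT with DMSO (log2 fold change 2.60, standard error 0.20), 2.90-fold that of WT with torin1 (log2 fold change 1.54, standard error 0.18) and 6.72-fold that of WT with MK-8722 (log2 fold change 2.75, standard error 0.22). Torin1 raised it 2.70-fold in WT (log2 fold change 1.43, standard error 0.20, edgeR adjusted p = 1.85e-06). Its log2 fold change in *tfeb tfe3* DKO was 0.37 (standard error 0.17, edgeR adjusted p = 0.0674) and the ranges with DMSO and torin1 overlapped. This value passed the threshold under 12 of the other settings tried, among them passage as a block and passage within genotype as a block (adjusted p = 0.0269 and 0.00431). The response to torin1 was lower in *tfeb tfe3* DKO than in WT by the test of the difference itself, which gave -1.07 (95% interval -1.61 to -0.52, edgeR adjusted p = 0.00734).

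MK-8722 lowered *Arrdc4* 1.78-fold in WT (log2 fold change -0.83, standard error 0.24) and 1.61-fold in *tfeb tfe3* DKO (log2 fold change -0.68, standard error 0.17), with edgeR adjusted p = 0.0116 and 0.00716. The ranges with DMSO and MK-8722 overlapped in both genotypes. Without the WT libraries of passage 11 the value in WT was -0.76 (adjusted p = 0.0888), and with an offset for transcript length it was -0.63 (adjusted p = 0.0788). The difference between the responses to MK-8722 was 0.15 (95% interval -0.47 to 0.76).

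**Figure D2:**
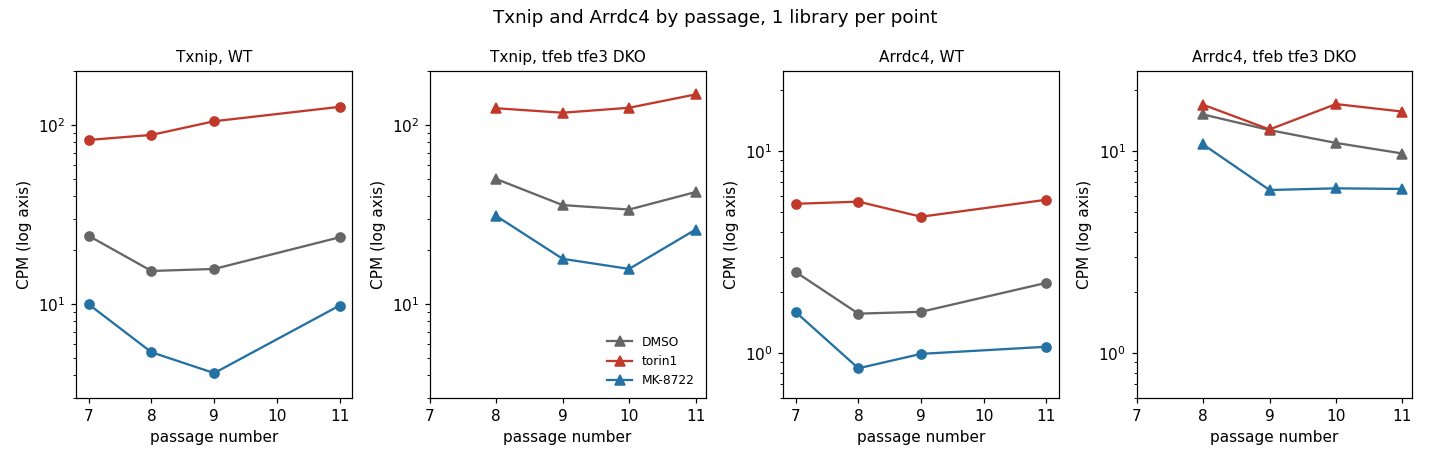
*Txnip* and *Arrdc4* in CPM (log axis) against the passage number of the labels, 1 library per point, in WT and *tfeb tfe3* DKO. At each passage of either genotype the torin1 point lies above and the MK-8722 point below the DMSO point, with *Arrdc4* at passage 9 of *tfeb tfe3* DKO nearly level between torin1 (12.8 CPM) and DMSO (12.7 CPM).

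Libraries of the same genotype and passage tended to deviate together, and compared within passages the directions of *Txnip* and *Arrdc4* held. In WT, *Txnip* with torin1 minus DMSO was 1.77, 2.51, 2.73 and 2.41 on the log2 CPM scale at passages 7, 8, 9 and 11. The same difference in *tfeb tfe3* DKO was 1.31, 1.71, 1.88 and 1.81 at passages 8, 9, 10 and 11. With MK-8722 *Txnip* was lower than with DMSO in 4 of 4 passages in each genotype, by log2 differences from -1.91 to -1.26 in WT and from -1.10 to -0.68 in *tfeb tfe3* DKO. *Arrdc4* with torin1 differed from DMSO by 1.10 to 1.80 in WT and by 0.01 to 0.69 in *tfeb tfe3* DKO.

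*Arrdc2* (ENSMUSG00000002910; chromosome 8, 70835129 to 70839720, - strand) rose with both drugs and was lower in *tfeb tfe3* DKO. In WT, at passages 7, 8, 9 and 11, DMSO libraries had 8.64, 6.68, 7.05 and 5.87 CPM, torin1 libraries 13.3, 14.3, 13.2 and 12.7, and MK-8722 libraries 8.52, 8.52, 9.53 and 8.89. DKO libraries, at passages 8, 9, 10 and 11, had 4.44, 3.81, 4.22 and 3.94 CPM under DMSO, 8.11, 7.65, 8.48 and 8.09 under torin1, and 5.86, 6.21, 5.56 and 5.62 under MK-8722. All torin1 libraries were above the DMSO libraries of their genotype, while in WT the highest DMSO library lay within the range of MK-8722.

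Torin1 raised *Arrdc2* by a log2 fold change of 0.92 in WT and 0.98 in *tfeb tfe3* DKO (standard errors 0.08 and 0.09). MK-8722 raised it by 0.33 in WT (standard error 0.09, edgeR adjusted p = 0.00521) and by 0.50 in *tfeb tfe3* DKO (standard error 0.09). The value in WT missed the threshold without the WT libraries of passage 11 (0.24, adjusted p = 0.0553), and without the DMSO library of passage 11 alone it was 0.25, below a fold change of 1.2. It also missed with a transcript length offset (edgeR adjusted p = 0.181) and with only the compared groups fitted (0.0511). At passage 7 in WT, *Arrdc2* with MK-8722 minus DMSO was -0.02 on the log2 CPM scale. Against WT, *Arrdc2* was lower in DKO by a log2 fold change of -0.78 under DMSO, -0.73 under torin1 and -0.61 under MK-8722. The responses to torin1 and to MK-8722 differed between genotypes by 0.06 (95% interval -0.20 to 0.32) and 0.18 (95% interval -0.09 to 0.44), and neither passed.

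*Arrdc1* (ENSMUSG00000026972; chromosome 2, 24925352 to 24935252, - strand), whose product drives budding of vesicles at the plasma membrane, rose with torin1 alone. WT libraries had 21.8 to 25.6 CPM under DMSO, 37.9 to 41.6 under torin1 and 24.1 to 26.3 under MK-8722. The *tfeb tfe3* DKO libraries had 24.8 to 30.8, 38.1 to 44.7 and 26.4 to 31.1 CPM. The torin1 ranges lay above all others, and the log2 fold change was 0.75 in WT and 0.58 in *tfeb tfe3* DKO (standard error 0.07 each). With MK-8722 it was 0.08 (95% interval -0.06 to 0.22) and 0.07 (95% interval -0.07 to 0.21).

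*Arrdc3* (ENSMUSG00000074794; chromosome 13, 80883384 to 80896042, + strand), an adaptor for beta-adrenergic receptors and other cargo, was not called with either drug against DMSO. In WT the mean was 8.82 ± 0.583 CPM under DMSO, 9.96 ± 1.15 under torin1 and 7.21 ± 0.819 under MK-8722, and in DKO it was 7.01 ± 0.629, 7.09 ± 1.45 and 5.80 ± 0.591 (SD, n = 4). The log2 fold changes were 0.18 and 0.02 with torin1 and -0.29 and -0.27 with MK-8722, in WT and *tfeb tfe3* DKO. The value with MK-8722 in WT passed under 6 other settings, among them passage as a block (edgeR adjusted p = 0.0392), passage within genotype as a block (0.0205) and without the WT MK-8722 library of passage 7 (-0.37, 0.0324). It was lower in DKO, by -0.33 under DMSO, -0.49 under torin1 and -0.31 under MK-8722. With an offset for transcript length these 3 values were -0.40, -0.10 and -0.34 and none passed. The value with DMSO also missed the threshold without the WT library of passage 8 or the DKO library of passage 10 (edgeR adjusted p = 0.0542 and 0.0580). That with MK-8722 missed it without the WT library of passage 7 or the DKO library of passage 9 or 8 (edgeR adjusted p = 0.0997, 0.111 and 0.0533), and with passage as a block (-0.25, 0.0763). A retained-intron transcript of 591 bases, beside a coding one of 4101, held from 0.0% to 50.8% of the estimated *Arrdc3* TPM in single libraries of *tfeb tfe3* DKO with torin1.

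*Mlx* (ENSMUSG00000017801; chromosome 11, 101087277 to 101092207, + strand) fell with torin1 in both genotypes. WT libraries of passages 7, 8, 9 and 11 had 37.8, 34.9, 35.9 and 37.2 CPM under DMSO, 23.4, 25.03, 24.8 and 23.3 under torin1, and 44.5, 46.4, 45.1 and 41.9 under MK-8722. DKO libraries of passages 8, 9, 10 and 11 had 41.0, 40.4, 41.6 and 39.3 CPM under DMSO, 19.9, 20.5, 18.5 and 20.1 under torin1, and 40.01, 41.0, 39.5 and 40.5 under MK-8722. The 3 WT groups did not overlap, and in *tfeb tfe3* DKO the torin1 libraries stood below those with DMSO and MK-8722, which overlapped.

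Torin1 lowered *Mlx* 1.51-fold in WT (log2 fold change -0.59, standard error 0.04) and 2.05-fold in *tfeb tfe3* DKO (log2 fold change -1.04, standard error 0.04). The difference between these responses was -0.44 (95% interval -0.56 to -0.33, edgeR adjusted p = 6.38e-06). MK-8722 raised it 1.22-fold in WT (log2 fold change 0.29, standard error 0.04), while in *tfeb tfe3* DKO the log2 fold change was -0.01 (95% interval -0.09 to 0.07). The difference between the responses to MK-8722 was -0.30 (95% interval -0.41 to -0.19, edgeR adjusted p = 0.000872). Both values with MK-8722 lie near the fold change of 1.2 required for a call, and without the WT MK-8722 library of passage 8 they were 0.26 and -0.26, below it. *Mlx* overlaps *Psmc3ip* on the other strand. In WT *Psmc3ip* was at 27.2 ± 1.30 CPM under DMSO, 22.8 ± 1.82 under torin1 and 26.6 ± 1.79 under MK-8722 (SD, n = 4). In *tfeb tfe3* DKO it was at 23.5 ± 1.73, 23.2 ± 0.878 and 25.1 ± 1.34 CPM. How strand was used in counting is not given in the sources used here, and the part of the overlap in the *Mlx* values was not tested.

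*Mlxip* (ENSMUSG00000038342; chromosome 5, 123394798 to 123457932, + strand), the partner of *Mlx*, differed mainly by genotype. The WT libraries had 64.2 to 71.2 CPM under DMSO, 52.0 to 54.7 under torin1 and 63.8 to 67.5 under MK-8722. Those of *tfeb tfe3* DKO had 119.4 to 131.5, 108.7 to 115.9 and 118.4 to 131.3 CPM, so no range of *tfeb tfe3* DKO reached that of WT. It was higher in *tfeb tfe3* DKO by 1.80-fold with DMSO, 2.12-fold with torin1 and 1.88-fold with MK-8722 (log2 fold changes 0.85, 1.08 and 0.91, standard error 0.04 each). Torin1 lowered it by a log2 fold change of -0.37 in WT. The value in *tfeb tfe3* DKO was -0.14, which had an edgeR adjusted p of 0.00508 but was below a fold change of 1.2. The difference between these responses, 0.23 (edgeR adjusted p = 0.00674), lay just below that fold. It was called when any of 6 single WT libraries, or those of passage 11, was left out (0.27 to 0.29). With MK-8722 the log2 fold changes of *Mlxip* were -0.06 and 0.00.

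**Figure D3:**
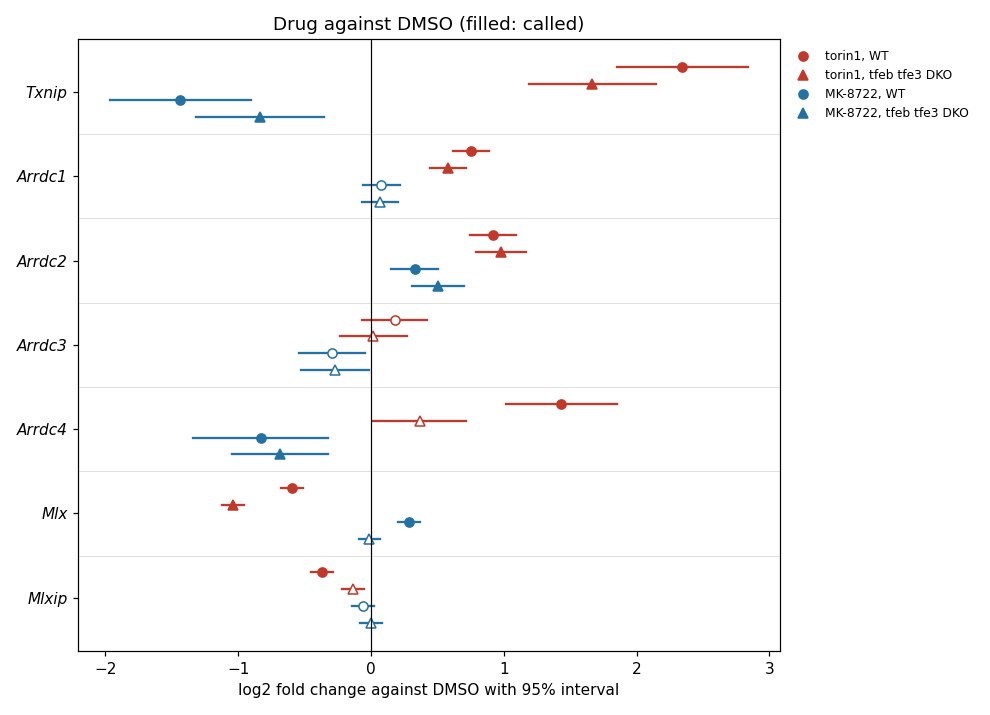
The log2 fold change against DMSO with its 95% interval (horizontal axis) for the 7 genes and both drugs, with circles for WT, triangles for *tfeb tfe3* DKO and filled symbols for called values. With torin1 *Txnip*, *Arrdc1* and *Arrdc2* are called higher and *Mlx* lower in both genotypes. With MK-8722 *Txnip* and *Arrdc4* are called lower in both genotypes, and *Arrdc3* also lies to the left of 0 in both but is not called.

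A gene was called at an adjusted p under 0.05 with a fold change of at least 1.2. With torin1 in WT, 6 of 7 members were called, 4 higher and 2 lower, where 47.1% of all tested genes were called, and the median log2 fold change was 0.75 over the members and 0.05 over all genes. With MK-8722 in WT 4 were called, 2 in each direction (16.1% of all genes), with medians of -0.06 and -0.01. Among DKO libraries 4 members were called for torin1 (43.2% of all genes) and 3 for MK-8722 (8.69%). Torin1 against MK-8722 called all 7 members in WT (44.9%) and 5 in *tfeb tfe3* DKO (40.4%), with *Mlx* lower and *Txnip*, *Arrdc1*, *Arrdc2* and *Arrdc4* higher in both. The 2 drug comparisons of a genotype share its DMSO libraries. With counts over 7 genes, shares of 6 and 4 of 7 are described beside these backgrounds and not tested.

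**Figure D4:**
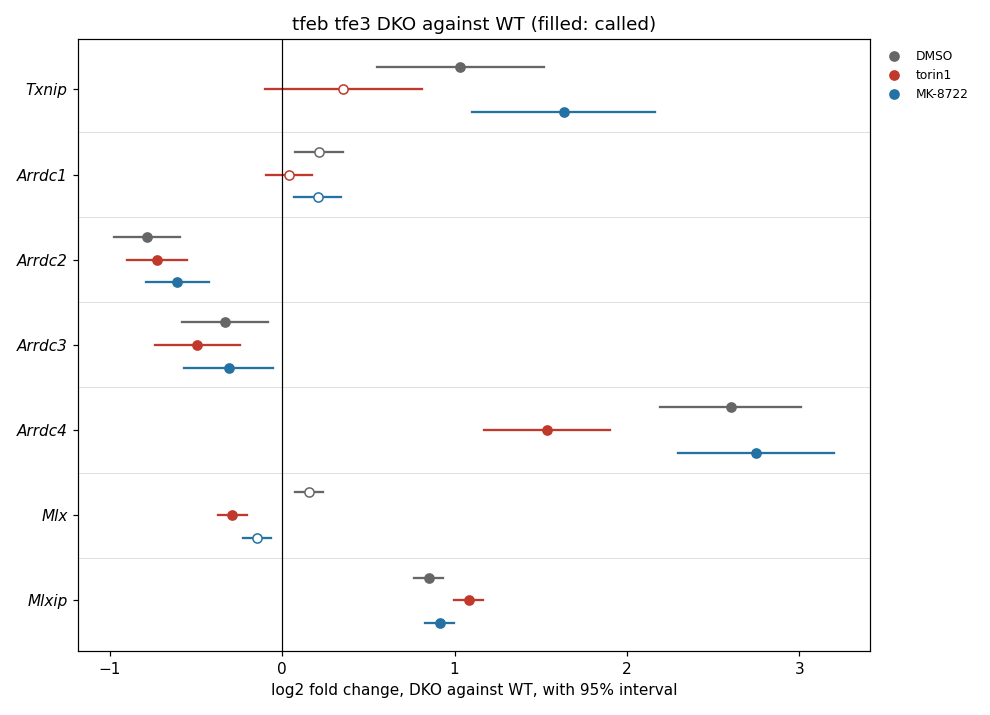
The log2 fold change of *tfeb tfe3* DKO against WT with its 95% interval (horizontal axis) for the 7 genes under DMSO, torin1 and MK-8722, with filled symbols for called values. *Arrdc4* and *Mlxip* are called higher and *Arrdc2* and *Arrdc3* lower under all 3 treatments. *Txnip*, not called with torin1, and *Arrdc1*, not called under any treatment, also lie to the right of 0 in all 3. The torin1 value of *Arrdc4* (1.54) is below those with DMSO (2.60) and MK-8722 (2.75).

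Between genotypes 5 members were called with DMSO (48.2% of all genes), 5 with torin1 (51.8%) and 5 with MK-8722 (48.7%). *Arrdc4* and *Mlxip* were higher and *Arrdc2* lower in *tfeb tfe3* DKO in all 3. *Arrdc3* was called lower in all 3 too, but lost the call with DMSO under 4 other settings, with torin1 under 1 and with MK-8722 under 7. *Txnip* was higher with DMSO and MK-8722, and *Mlx* was lower with torin1 (-0.29, and -0.25 without the DKO torin1 library of passage 10, below a fold change of 1.2). *Arrdc1* was called in none of the 3. The difference between the responses called 2 members for torin1, *Arrdc4* and *Mlx* (11.0% of all genes), and *Mlx* alone for MK-8722 (5.49%).

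Levels between genes were compared per length, in the length-scaled TPM values that the authors estimated. In WT with DMSO the order was *Mlx* (48.2 TPM), *Arrdc1* (30.3), *Mlxip* (17.1), *Txnip* (11.9), *Arrdc2* (6.82), *Arrdc3* (4.64) and *Arrdc4* (1.67). The ranges of *Arrdc2* and *Arrdc3* overlapped, and those of the other neighbours did not. With torin1 *Txnip* (70.8 TPM) had the highest mean of the 7, with a range of 54.7 to 94.9 that overlapped that of *Arrdc1* (50.8 to 56.8, mean 53.3), and *Mlx* (36.0) stood behind both. Among DKO libraries with DMSO, *Arrdc4* (9.99 TPM) stood above *Arrdc2* (3.63) and *Arrdc3* (3.43), while in WT it stood below both. The ranges of *Arrdc2* and *Arrdc3* overlapped there too (3.31 to 4.01 and 2.95 to 3.81 TPM in DKO).

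**Figure D5:**
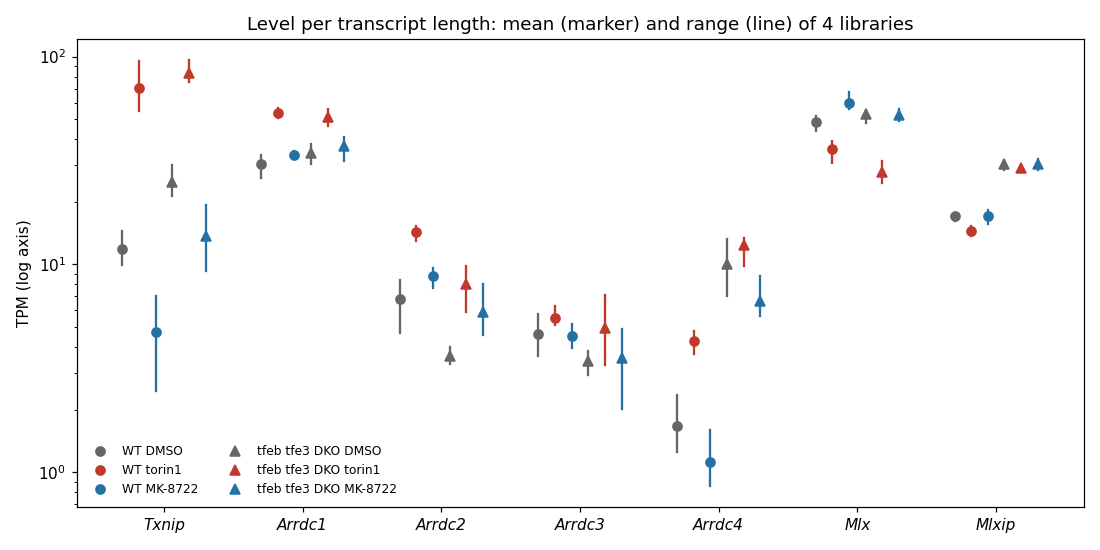
Estimated TPM (log axis) of the 7 genes in the 6 groups, as the mean (circle for WT, triangle for *tfeb tfe3* DKO) and the range (line) of 4 libraries. *Txnip* spans from 4.71 TPM in WT with MK-8722 to 83.3 TPM in *tfeb tfe3* DKO with torin1.

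Most of the estimated *Txnip* TPM fell on a pair of coding transcripts of 8 exons, *Txnip-202* (47.9% in WT with DMSO) and *Txnip-201* (42.5%). With torin1 in WT *Txnip-202* held 46.9%, while *Txnip-201* held 35.9%, with a range of 33.8% to 38.7% below that with DMSO (40.2% to 46.2%). The retained-intron transcript *Txnip-203* (393 bases) held 3.87% with DMSO and 10.2% with torin1 in WT, and these ranges did not overlap. In *tfeb tfe3* DKO it held 6.62% and 9.72%, and the ranges overlapped (4.36% to 10.7% and 8.85% to 11.2%). Of the estimated *Txnip* reads in WT it held only 0.399% with DMSO and 1.15% with torin1. Its lowest TPM share in WT with DMSO was 0.0%. These shares were not tested. The short coding transcript *Arrdc4-202* (5 exons, 1129 bases) held 71.0% ± 4.61 of the *Arrdc4* TPM in WT under DMSO, 63.5% ± 3.44 under torin1 and 79.7% ± 1.26 under MK-8722 (SD, n = 4). Of the estimated *Arrdc4* reads in these groups it held 39.3%, 31.4% and 50.6%. The WT libraries with MK-8722 had only 22 to 41 *Arrdc4* counts each. The antisense gene *Gm15441*, which overlaps *Txnip*, had at most 28 counts in a library, against up to 4016 for *Txnip*, and in WT went from 0.188 CPM under DMSO to 0.778 under torin1.

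Other genes around the members moved in several directions, counted over lists named from textbook roles. Of all 15401 tested genes, torin1 raised 4100 and lowered 3153 in WT (47.1% called), and 3542 and 3111 in *tfeb tfe3* DKO (43.2%). MK-8722 raised 1583 and lowered 904 in WT (16.1%), and 843 and 495 in *tfeb tfe3* DKO (8.69%). The list counts are described beside these shares and not tested. Of 10 tested genes of glucose entry, 4 rose and 3 fell with torin1 in WT, with a median log2 fold change of 0.13 beside 0.05 over all tested genes. Of the 4 that rose, *Slc2a3* and *Slc2a4* lay near the floor. They had 108 and 65 counts over the 4 WT libraries with DMSO (0.874 and 0.533 CPM). *Slc2a8*, a glucose transporter, rose by 0.97 and *G6pdx*, which opens the pentose phosphate pathway, fell by 0.89. With MK-8722 the called genes were *Hk2* (0.88) and *Slc2a1* (0.53), a hexokinase and the main basal glucose transporter, and both rose. Torin1 lowered both in WT, from means of 52.6 to 29.2 CPM (*Hk2*) and from 107.2 to 62.2 CPM (*Slc2a1*). In *tfeb tfe3* DKO, torin1 called 3 of the 10 genes higher (*Slc2a3*, *Slc2a6* and *Slc2a8*), beside 43.2% of all genes called. It called 4 lower, *Slc2a10* and *G6pdx* as well as *Hk2* (-1.04) and *Slc2a1* (-0.66). MK-8722 there called *Hk2* (0.54), *Slc2a1* (0.38) and *Slc2a8* higher and none lower (8.69%). Torin1 against MK-8722 in WT called 3 of the 10 genes higher and 3 lower (44.9% of all genes called). The median was -0.01 beside 0.05 over all tested genes. *Hk2* (-1.73), *Slc2a1* (-1.32) and *G6pdx* had the opposite sign to *Txnip*, and *Slc2a3*, *Slc2a6* and *Slc2a8* the same sign.

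The thioredoxin system, which TXNIP acts on, fell in part with torin1. Of 7 genes 4 fell and none rose in WT (47.1% of all genes called), with a median of -0.29 beside 0.05 over all tested genes, among them *Txn2* (-0.86), *Txnrd1* (-0.71) and *Txn1* (-0.51). DKO cells had 3 that fell, and with MK-8722 none of the 7 was called in either genotype. Of 9 NEDD4 family ligases 4 rose with torin1 in WT, *Wwp2* (0.45) among them, and 4 with MK-8722, including *Smurf1* (0.69) and *Nedd4l* (0.53), with medians of 0.22 and 0.12 (0.05 and -0.01 over all tested genes). None fell in WT with either drug. Of the ligases that rose in WT, *Hecw1* (torin1) and *Hecw2* (both drugs) lay near the floor. They had 36 and 33 counts over the 4 WT libraries with DMSO (0.293 and 0.274 CPM). Among DKO libraries 4 rose and *Wwp1* fell with torin1 (median -0.01, 43.2% of all genes called), and *Smurf1* alone was called, higher, with MK-8722 (8.69%).

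Of 11 tested genes that carbohydrate response factors are known to regulate in liver or other tissues, 4 rose and 6 fell with torin1 in WT (47.1% of all genes called), with a median of -0.45 beside 0.05 over all tested genes. The G protein regulator *Rgs16* rose by 1.84, while the fatty acid elongase *Elovl6* fell by 1.73 and *Mid1ip1*, a regulator of fatty acid synthesis, by 1.41. In WT with DMSO *Rgs16* lay near the floor (0.793 ± 0.462 CPM, SD, n = 4), with 97 counts over the 4 libraries. *Gpd1*, which is among the 6 that fell, had 88 counts there. MK-8722 raised *Rgs16* (1.68) and *Bhlhe40* (1.58) in WT and lowered none. In the MLX and MAX network, 4 of 9 tested genes rose with torin1 in WT, *Mycl* by 1.07 and *Mxi1* by 0.52, and *Mxd3* fell (-0.34), beside 47.1% of all genes called. With MK-8722 in WT *Myc* rose and *Mycl* (-0.47), *Mxd3* (-0.71) and *Mxd4* fell (16.1%). In *tfeb tfe3* DKO against WT with DMSO, 4 of the 9 were called higher and 4 lower (48.2% of all genes called). *Mycl* was higher there by 2.77, while *Mxd1*, *Mxi1*, *Mxd3* and *Mxd4* were lower. *Mlxipl*, the paralogue of *Mlxip* that is abundant in liver, was too low to be tested, with at most 5 counts over the 4 libraries of a group.

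Of 5 tested genes for other proteins of the arrestin fold, 2 rose and 2 fell with torin1 in WT (47.1% of all genes called), and 2 rose and 1 fell with MK-8722 (16.1%). *Vps26a*, a retromer subunit, rose with torin1 (0.68) and MK-8722 (0.77), as did *Vps26c* (0.27 and 0.56). *Arrb1*, a beta-arrestin, fell with both (-0.49 and -0.60), and *Vps26b*, another retromer subunit, fell with torin1 (-0.39). The responses of *Vps26a* were lower in *tfeb tfe3* DKO than in WT by -0.77 for torin1 and -0.83 for MK-8722, and both differences were called. With DMSO, 3 of the 5 were called higher in *tfeb tfe3* DKO (*Vps26a*, *Vps26b* and *Vps26c*) and 2 lower (48.2% of all genes called). Of the latter, *Arrb1* differed by -1.26. Of the 4 genes for partners of ARRDC1 in vesicle budding, none was called with either drug against DMSO, and all 4 were higher in *tfeb tfe3* DKO with DMSO (median 0.36, and -0.01 over all tested genes, of which 3621 of 15401 were called higher and 48.2% called), *Pdcd6ip* by 0.47 and *Tsg101* by 0.36.

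The genes whose log2 CPM ran most like that of *Txnip* over the 24 libraries were *Tubgcp2* (Pearson r = 0.96), *Dmac2* (0.95), *Zfp949* (0.94), *Ctdsp2* (0.94) and *Zfp846* (0.93). For *Arrdc4* they were *Pard3*, *Lcmt2*, *Cbr3*, *Ttc30a1* and *Ddx10* (0.96 to 0.97). Among the members, r with *Txnip* was 0.83 for *Arrdc1*, 0.79 for *Arrdc4* and -0.86 for *Mlx*. Many other genes ran closer: from the highest r with *Txnip*, *Arrdc1* had rank 293 and *Arrdc4* rank 512 among the tested genes. By r with *Arrdc4*, *Txnip* had rank 1207. These are descriptions over libraries that share 6 groups.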

How the data were processed

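The 7 members and the gene lists were chosen with earlier results of these data known. Libraries were made from polyA RNA (paired-end, 52 bases), and the submitters' processing notes name STAR, Salmon and the build GRCm38. The authors deposited estimated counts per gene, merged over 24 libraries, and per transcript files with TPM and effective lengths, both from Salmon. Gene names came from the table (GENCODE M21 for positions). The estimated counts were rounded and fitted in edgeR 4.0.16 (R 4.3.3), with filterByExpr at a minimum count of 10, TMM normalization, 1 mean per group over all 24 libraries (18 residual degrees of freedom) and a quasi-likelihood test of 11 comparisons, with Benjamini-Hochberg adjustment over 15401 genes. Calls required a fold change of 1.2 or more beside an adjusted p below 0.05. CPM were counts over the TMM-scaled library size. Standard errors and 95% intervals come from the same fit. The script was tested on simulated data.

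Alternatives were DESeq2 1.42.0, limma 3.58.1 with voom, other scalings and filters, a transcript length offset, blocks for replicate number or passage, and leaving out libraries. Named list genes were up to 3 called genes of the largest change per comparison, and the 5 genes most correlated with *Txnip* and with *Arrdc4*. A few further list genes (among them *Wwp1*, *Hecw1*, *Hecw2*, *Slc2a3*, *Slc2a6*, *Mxd3*, *Mxd4*, *Myc*, *Vps26b* and *Vps26c*) were named after their values were seen, to complete or qualify a count. The labels give 1 batch. Replicate numbers did not pair the libraries: 13 of 60 pairs with the same number had deviations correlated above 0.1. Pairs of replicates differed by more than sampling noise (chi-square per degree of freedom of 3.86 or more over 36 pairs).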

Additional observations from a re-analysis of the deposited data

Results flagged for a closer look

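*Arrdc4* in the *tfeb tfe3* DKO library with MK-8722 of passage 8 was at 10.8 CPM, while the other 3 libraries of that group were between 6.42 and 6.54 CPM, so that this library stood apart from its group. In 42 groups of 4 libraries tested this was the only one found, and chance alone flags about 1 group in 20. Passage 8 also had the highest *Arrdc4* with DMSO in that genotype (15.2 CPM).

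The response of *Arrdc4* to torin1 was -1.07 on the log2 scale in *tfeb tfe3* DKO minus WT, and that of *Mlx* was -0.44. The response of *Mlx* to MK-8722 was -0.30. Each passed the edgeR test of the difference between the genotypes.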

How the results depend on the processing

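Of 77 values (7 genes in 11 comparisons) 47 were called, 34 of them under every setting, and 17 of the 30 others were called under none. No called value changed sign. With the test against a fold change of 1.2 in place of the threshold, the members called fell from 4 to 1 with MK-8722 in WT, from 3 to 0 with MK-8722 in *tfeb tfe3* DKO and from 1 to 0 for the difference in response to MK-8722 (over all genes 956, 174 and 273 were called, against 2487, 1338 and 846). With the transcript length offset 2 were called with MK-8722 in WT and 0 for the difference in response to MK-8722, and without the WT libraries of passage 11 2 were called with MK-8722 in WT. Without the WT MK-8722 library of passage 8, the difference in response to MK-8722 called 0 members. Leaving out single libraries gave counts of 0 to 1 for that difference and otherwise stayed within 1.5 times the count. The causes were not tested. With the replicate number as a block, 6 members were called with torin1 and 4 with MK-8722 in WT, 4 and 3 in *tfeb tfe3* DKO, and no call of any member changed. Passage within genotype as a block added 5 calls and removed none: the difference in response of *Txnip* to torin1 (-0.67, edgeR adjusted p = 0.0150), *Txnip* between genotypes with torin1 (0.0118), *Arrdc3* with MK-8722 in WT (0.0205), *Arrdc4* with torin1 in *tfeb tfe3* DKO (0.00431) and *Arrdc3* between the drugs in *tfeb tfe3* DKO (0.0264). Passage as a block added the last 4 of these and removed that of *Arrdc3* between genotypes with MK-8722 (0.0763). Libraries of the same passage and genotype had deviations correlated above 0.1 in 17 of 24 pairs. *Arrdc4* in WT with MK-8722 rests on 22 to 41 counts per library, which limits the precision of that value.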
